A study of Arabidopsis thaliana with 4 samples.

Results

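Among the abundant transcripts of 2-week-old Arabidopsis thaliana seedlings, 85 genes were lower in libraries labelled tcx5 tcx6 cmt3 than in libraries labelled cmt3. They were chosen by their values in this contrast: both cmt3 libraries at or over 1500, and the lower cmt3 value at least 1.4 times the higher value of the labelled triple mutant. The table holds 32548 genes, of which 5684 reached 1500 in both cmt3 libraries, and the 85 are 1.5% of these. ESM1, COR15A and COR15B were set aside in choosing the genes: ESM1 and COR15A meet both values and COR15B does not. Because this difference chose the genes, their lower level is a description and not a test. All 85 pass the limma threshold used below, against 2.32% of all tested genes and 3.76% of the abundant ones called lower, and nothing is read from that count.

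The tested seedlings carry the labelled genotype tcx5-/- tcx6-/- cmt3-/- and the control seedlings cmt3-/-, so all 4 libraries, 2 of each genotype, share the cmt3 mutation. The labels name neither the alleles nor the ecotype, and they do not say whether replicates were grown separately. The p-values therefore reflect library-to-library spread alone, and that spread may be technical. Seedlings grew on MS plates at 22 °C with 16 h of light and 8 h of dark, and mRNA libraries were made from whole seedlings. The values are the authors' normalized signal, a fractional value per gene without a physical unit. The libraries sum to 39000000 and 39160800 in the labelled triple mutant and to 41106100 and 38264500 in cmt3.

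TCX5 and TCX6 are CXC-domain proteins that bind DNA in the DREAM complex, a repressor of cell cycle genes that works with E2F and MYB factors. CMT3 is the chromomethylase that maintains cytosine methylation at CHG sites. Many of the 85 genes belong to other processes: the response to iron deficiency, abscisic acid and dehydration signalling, jasmonate, the breakdown of glucosinolates, and immune receptors and kinases. In iron deficiency, a group of bHLH transcription factors switches on iron uptake, and the ubiquitin ligase BTS limits that response. In abscisic acid signalling, receptors of the PYR/PYL family bind and block clade A protein phosphatases, which otherwise hold the SnRK2 kinases inactive.

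Of the genes labelled as mutated in the triple mutant alone, 1 was lower there and 1 was higher. TCX5 (AT4G29000) had 251 and 249 in the labelled triple mutant, against 730 and 676 in cmt3. TCX6 (AT2G20110) had 919 and 1034 in the labelled triple mutant, against 198 and 180 in cmt3 (log2 fold change 2.36 ± 0.13 SE, limma, Benjamini-Hochberg adjusted p = 0.00044). CMT3, labelled as mutated in both, had 1289 and 1343 in the labelled triple mutant, against 822 and 662 in cmt3. A label names a mutation and not a transcript level, so these values do not settle the genotype. Every direction below therefore rests on the label. Markers of green seedlings were abundant: the light-harvesting gene CAB1 had 356296 and 359275 in the labelled triple mutant, against 351284 and 283185 in cmt3, while the seed storage gene CRA1 stayed at or under 28.1 and the floral gene AP1 at or under 7.7 in all 4 libraries.

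Across the 85 genes the labelled triple mutant mean was 21.2% to 69.8% of the cmt3 mean, with a median of 57.0%. The median log2 fold change was -0.80, beside -0.02 over all 23666 tested genes and -0.04 over the 5684 abundant genes. The libraries of the 85 genes do not overlap by rule. Without any ratio, both labelled triple mutant values lay below both cmt3 values in 32.8% of the abundant genes and 25.7% of the tested genes. At the ratio threshold, AT1G69252, SIP1 and AT5G11650 were just inside at 1.404, 1.404 and 1.407, and AT1G67105, AT4G20830 and BIR1 just outside at 1.398, 1.397 and 1.396. At the minimum, SCPL11, ATCTH and WRKY53 were just inside, with lower cmt3 values of 1524, 1527 and 1528. AT3G26910, LOG1 and AT5G48900 were just outside, with 1484, 1482 and 1440.

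The cmt3 replicates were not alike for these genes. Replicate 1 was the higher one in 71 of the 85 (83.5%, median ratio 1.10), against 69.2% of all abundant genes (median ratio 1.06). In the iron group this held for 6 of 6 genes with a median ratio of 1.28, and the 3 glucosinolate genes had a median ratio of 1.34. In the labelled triple mutant, replicate 1 was the higher one in 28 of the 85, with a median ratio of replicate 1 to replicate 2 of 0.972. Among the 5684 abundant genes it was higher in 2685 (median ratio 0.995). The part of this spread in the results was not tested. In RNA from whole seedlings, fewer cells of a type and less RNA per cell cannot be told apart.

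**Figure D1:**
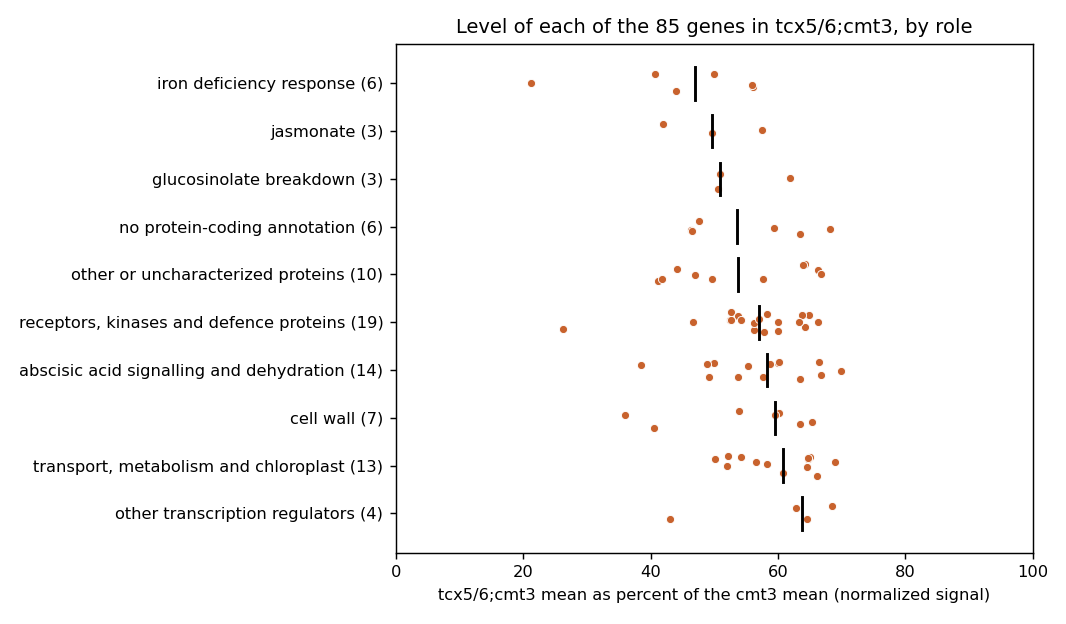
Level of each of the 85 genes in the labelled triple mutant (tcx5/6;cmt3) as a percent of its cmt3 mean, by role, with the number of genes in parentheses; each point is 1 gene (vertical scatter only separates points) and each bar the median of its group. Every point lies between 21.2% and 69.8%, and the group medians run between 47.0% in the iron deficiency response and 63.7% in the other transcription regulators.

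Short stretches upstream of BHLH100, BTS, PP2CA and NAC032, of the iron and abscisic acid groups, are shown because they hold the palindrome CACGTG, the G-box bound by bHLH and bZIP factors. ERD7 is shown because it holds the 1 match among the 85 genes to the E2F sites searched. They were read from the TAIR10.1 assembly of RefSeq and are given 5′ to 3′ on the strand of the gene, with matches in capitals. The windows lie at chr2:17199505-17199580 (minus strand) for BHLH100, chr3:6273785-6273936 (plus strand) for BTS, chr3:3586006-3586081 (minus strand) for PP2CA, chr1:29099754-29099829 (plus strand) for NAC032 and chr2:7757984-7758061 (minus strand) for ERD7. In ERD7 the capitals are the E2F site TTTCCCGC read on the opposite strand.
BHLH100: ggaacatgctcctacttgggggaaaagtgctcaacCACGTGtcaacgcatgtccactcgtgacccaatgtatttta
BTS: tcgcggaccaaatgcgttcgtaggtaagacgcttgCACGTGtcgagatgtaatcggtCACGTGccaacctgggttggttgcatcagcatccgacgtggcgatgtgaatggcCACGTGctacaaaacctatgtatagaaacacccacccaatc
PP2CA: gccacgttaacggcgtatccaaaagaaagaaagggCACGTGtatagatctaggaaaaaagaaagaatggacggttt
NAC032: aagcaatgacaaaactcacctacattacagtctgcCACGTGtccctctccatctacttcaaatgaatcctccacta
ERD7: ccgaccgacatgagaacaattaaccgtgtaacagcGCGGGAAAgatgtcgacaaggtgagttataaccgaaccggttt

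Genes of the iron deficiency response had the lowest median level of the 10 role groups, 47.0% of cmt3. BHLH100 (AT2G41240, chromosome 2, 17198037 to 17199454, minus strand), 1 of the bHLH factors that partner FIT to switch on iron uptake, had 506 and 614 in the labelled triple mutant, against 2888 and 2391 in cmt3. That is 21.2% of the cmt3 mean, the lowest share among the 85 genes. BTS (AT3G18290, chromosome 3, 6273966 to 6280562, plus strand), the iron-binding ubiquitin ligase that restrains the response, had 8558 and 8885 in the labelled triple mutant, against 20157 and 14740 in cmt3. So an activator and a restraint of the same response were both lower, and the restraint was the more abundant per length of exon, at 3882 against 2281 per kb in cmt3.

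ORG1 (AT5G53450), a kinase named for its response to the factor OBP3, had 7685 and 8604 in the labelled triple mutant, against 20968 and 16084 in cmt3. CGLD27 (AT5G67370), a chloroplast protein conserved in the green lineage, had 2491 and 2629 in the labelled triple mutant, against 7081 and 5512 in cmt3. The lower cmt3 value was 1.87 times the higher labelled triple mutant value for ORG1 and 2.10 times for CGLD27. FRO3 (AT1G23020), a ferric reductase of mitochondria, had 2591 and 2665 in the labelled triple mutant, against 4964 and 4403 in cmt3. ZIF1 (AT5G13740), a vacuolar transporter that affects zinc and iron partitioning, had 2817 and 3108 in the labelled triple mutant, against 5943 and 4653 in cmt3. In all 6 genes the cmt3 replicates differed more from each other than did the labelled triple mutant replicates on the linear scale, and no library of one genotype reached the range of the other.

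Genes of iron homeostasis that are not among the 85 moved in both directions. Of a list of 25, chosen after the members were seen, 10 were called lower and 5 higher. Of the 10, 6 are members and lower by the rule, which leaves 4 lower and 5 higher of 19 tested, beside 2.32% lower and 6.15% higher over all tested genes. A list chosen after its values were seen supports nothing by its count. The 3 other bHLH factors of the BHLH100 subgroup were lower: bHLH38 had 212 and 182 in the labelled triple mutant, against 916 and 743 in cmt3 (log2 fold change -2.07 ± 0.16 SE, limma, Benjamini-Hochberg adjusted p = 0.000985). The subgroup member bHLH39 had 413 and 428 in the labelled triple mutant, against 1252 and 1185 in cmt3 (-1.53 ± 0.10, limma adjusted p = 0.00059). For BHLH101 the values were 130 and 176 in the labelled triple mutant, against 716 and 535 in cmt3 (-2.02 ± 0.22, limma adjusted p = 0.00322). PYE, a bHLH factor of the root response, was also lower (-0.64 ± 0.12, limma adjusted p = 0.0205). All 4 subgroup genes were thus lower, and the 3 that are not among the 85 lay under the minimum of 1500.

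Ferritins, the plastid proteins that store iron, were higher. FER1 had 5893 and 5124 in the labelled triple mutant, against 3021 and 2601 in cmt3 (log2 fold change 0.97 ± 0.11 SE, limma adjusted p = 0.00372). FER4 had 1438 and 1237 in the labelled triple mutant, against 711 and 644 in cmt3 (0.98 ± 0.11, limma adjusted p = 0.00385). The iron-sulfur protein NEET (1.10, limma adjusted p = 0.0144), the citrate transporter FRD3 (1.07, limma adjusted p = 0.0316) and FER3 (0.35, limma adjusted p = 0.0496) were also called higher. The root uptake genes were not called: the ferrous iron transporter IRT1 had 2450 and 2347 in the labelled triple mutant, against 1725 and 2665 in cmt3, and the ferric reductase FRO2 had 1614 and 1595 in the labelled triple mutant, against 1011 and 1641 in cmt3. FIT (listed as FRU) had 390 and 352 in the labelled triple mutant, against 302 and 412 in cmt3, and overlapped between genotypes. The upstream factors ILR3, bHLH104, bHLH115 and bHLH121, the nicotianamine synthase NAS4 and the phloem transporter OPT3 (-0.64, limma adjusted p = 0.0515) did not pass either. VIT1 was at or under 3.24 in every library. PYE lost its call without either cmt3 library, BHLH101, NEET and FRD3 without cmt3 replicate 1, and FER3 without cmt3 replicate 2, with median centring, with a pseudocount of 0.1 and in the replicate block.

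**Figure D2:**
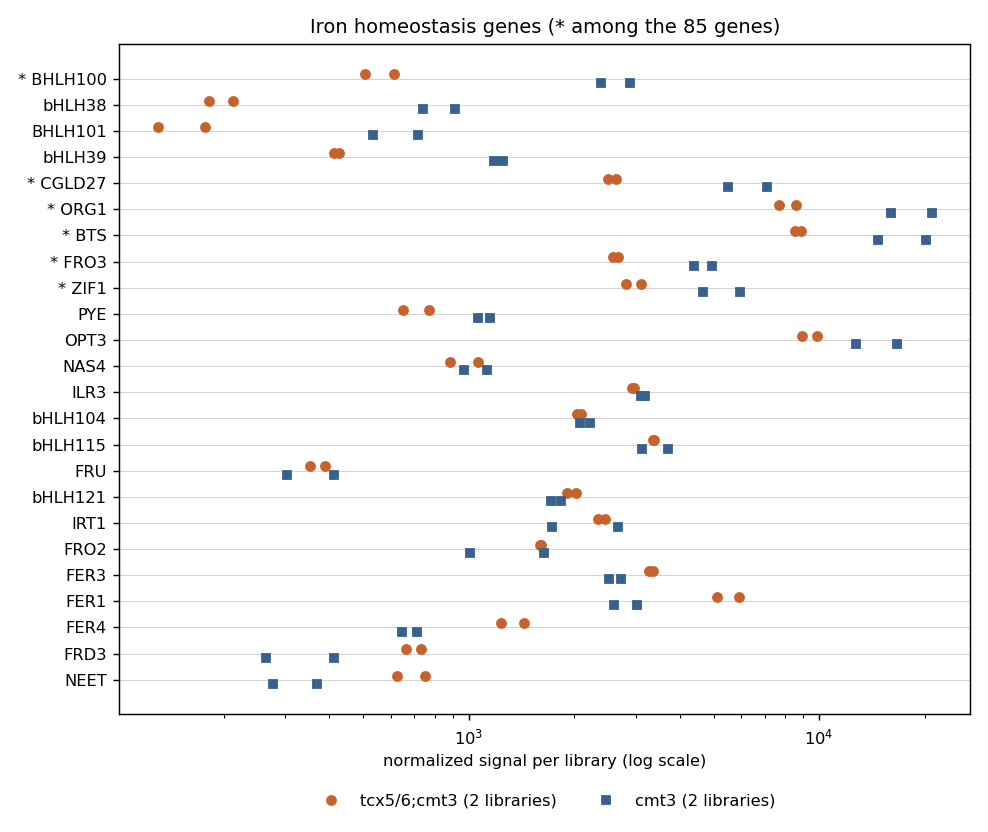
Normalized signal (log axis) of 24 of the 25 iron homeostasis genes in each library, ordered by fold change, with circles for the labelled triple mutant (tcx5/6;cmt3) and squares for cmt3 and an asterisk on the 6 genes that are among the 85. VIT1, at or under 3.24, is not drawn; the 4 bHLH genes of the BHLH100 subgroup stand lowest relative to cmt3, and the ferritins FER1 and FER4 lie above their cmt3 values.

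The largest named group, apart from receptors and kinases, was abscisic acid signalling and dehydration, with 14 genes at 38.5% to 69.8% of their cmt3 means. Clade A protein phosphatases restrain the pathway and are themselves induced by it. PP2CA (AT3G11410, chromosome 3, 3583782 to 3585850, minus strand) had 3436 and 3808 in the labelled triple mutant, against 6432 and 5620 in cmt3. ABI1 (AT4G26080), of the same clade, had 3549 and 3654 in the labelled triple mutant, against 6538 and 5456 in cmt3. HB6 (AT2G22430), a homeodomain factor that binds ABI1, had 7050 and 7294 in the labelled triple mutant, against 11332 and 10286 in cmt3. These 3 genes had closely similar shares, 60.1%, 60.1% and 66.4% of cmt3.

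NAC transcription factors formed the next set. RD26 (AT4G27410), named as responsive to desiccation, had 813 and 920 in the labelled triple mutant, against 1859 and 1667 in cmt3. ATAF1 (AT1G01720) had 1569 and 1692 in the labelled triple mutant, against 3473 and 3054 in cmt3. NAC032 (AT1G77450, chromosome 1, 29099839 to 29101759, plus strand) had 1054 and 1119 in the labelled triple mutant, against 1738 and 1689 in cmt3. NAC102 is the closest to cmt3 of the 85 genes at 69.8%, with 3894 and 3984 in the labelled triple mutant, against 5676 and 5605 in cmt3. The ATAF subgroup of NAC factors has 4 genes, of which ATAF1, NAC032 and NAC102 are members. The fourth, ATAF2, had 4990 and 4704 in the labelled triple mutant, against 3997 and 3581 in cmt3 (log2 fold change 0.36 ± 0.09 SE, limma adjusted p = 0.0655), so its point estimate lay on the other side and it was not called.

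Members of the group with products tied to dehydration came next. ERD10 (AT1G20450), a dehydrin that protects cells during drying and cold, had 8171 and 7998 in the labelled triple mutant, against 14185 and 13365 in cmt3. AT2G23120, annotated as a late embryogenesis abundant protein, had 4944 and 5070 in the labelled triple mutant, against 8730 and 8629 in cmt3. ERD7 (AT2G17840, chromosome 2, 7755605 to 7757929, minus strand), a dehydration- and senescence-associated protein, had 3956 and 4022 in the labelled triple mutant, against 7245 and 7167 in cmt3. The replicates of AT2G23120 and ERD7 lay close together in each genotype, and the genotypes far apart. AT1G11960, annotated in the early-responsive-to-dehydration family, was the lowest of the group at 38.5%, with 950 and 1012 in the labelled triple mutant, against 2750 and 2346 in cmt3. The CCCH zinc finger proteins OZF2 and ATCTH stood at 48.9% and 53.7%, and SIP1, a raffinose synthase, at 66.7%.

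In a list of 31 abscisic acid signalling genes, also chosen after the members were seen, 9 were called lower and 2 higher. Of the 9, 4 are members by the rule, which leaves 5 lower and 2 higher of 27 tested. Over all tested genes 2.32% were lower and 6.15% higher, and the 2 higher genes are near that share. As with the iron list, the counts support nothing. The 5 lower genes outside the 85 were the phosphatases HAI1, HAI2, HAB1 and ABI2 and the synthesis gene NCED3, whose product makes the precursor of the hormone. HAI2 had 76.5 and 140 in the labelled triple mutant, against 609 and 538 in cmt3 (log2 fold change -2.46 ± 0.29 SE, limma adjusted p = 0.00443). HAI1 had 515 and 564 in the labelled triple mutant, against 1198 and 1165 in cmt3 (-1.13 ± 0.10, limma adjusted p = 0.00141). NCED3 had 499 and 564 in the labelled triple mutant, against 1349 and 1184 in cmt3 (-1.25 ± 0.11, limma adjusted p = 0.00177). HAB1 (-0.55, limma adjusted p = 0.0115) and ABI2 (-0.51, limma adjusted p = 0.0363) were lower by smaller amounts.

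The 2 higher genes are receptors of abscisic acid. PYL4 had 2951 and 2539 in the labelled triple mutant, against 1201 and 1435 in cmt3 (log2 fold change 1.06 ± 0.12 SE, limma adjusted p = 0.00363). PYL5 had 2376 and 2265 in the labelled triple mutant, against 980 and 1205 in cmt3 (1.09 ± 0.11, limma adjusted p = 0.00278). The called genes outside the 85 were thus 4 phosphatase genes and NCED3 lower and 2 receptor genes higher. The receptor PYR1 (-0.07) and the kinase OST1 (0.17) did not pass, nor did the bZIP factors ABF2 (-0.37), ABF3 (-0.27) and ABF4 (-0.29). The call of HAB1 was lost without cmt3 replicate 1, HAI2 and ABI2 lost theirs without either cmt3 library, and ABI2 also in the replicate block.

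**Figure D3:**
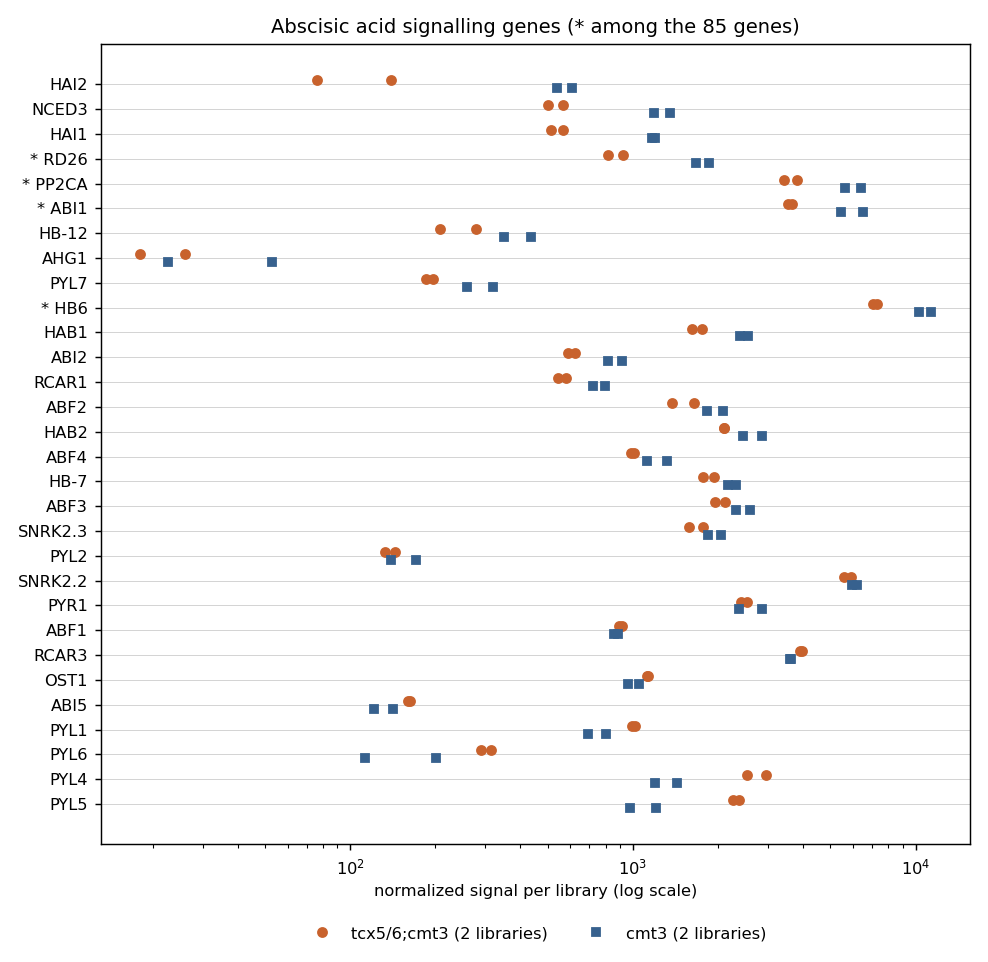
Normalized signal (log axis) of 30 of the 31 abscisic acid signalling genes in each library, ordered by fold change, with circles for the labelled triple mutant (tcx5/6;cmt3), squares for cmt3 and an asterisk on the 4 genes among the 85. HAI3, at or under 14.8, is not drawn; HAI2, NCED3 and HAI1 stand lowest relative to cmt3 and the receptors PYL4 and PYL5 highest.

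The cold and dehydration list of 24 genes held ERD10 as its 1 member among the 85. Of the 24, 4 were called lower and 2 higher. Without ERD10 this is 3 and 2 of 23, beside 2.32% and 6.15% over all tested genes. COR15A, 1 of the 3 lower, meets both values of the rule and was set aside in choosing the genes. No dehydrin of the list other than ERD10 was called: COR47 (-0.06), ERD14 (-0.33), RAB18 (-0.41), LTI30 (-0.50) and XERO1 (-0.05) did not pass. CBF1, a transcription factor that switches on cold-response genes, had 163 and 206 in the labelled triple mutant, against 447 and 491 in cmt3 (log2 fold change -1.35 ± 0.17 SE, limma adjusted p = 0.00606). COR15A (-0.96, limma adjusted p = 0.0224) and COR15B (-0.60, limma adjusted p = 0.047) were lower, and the zinc finger factors RHL41 (0.77, limma adjusted p = 0.00756) and STZ (0.49, limma adjusted p = 0.022) were higher. GRP7, with COR47 the most abundant in cmt3 of the genes outside the 85, did not pass either. CBF1 lost its call without either cmt3 library, COR15A and COR15B without replicate 1, COR15B also with a pseudocount of 0.1, and STZ without replicate 2.

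Jasmonate genes among the 85 cover synthesis and response. LOX3 (AT1G17420), a lipoxygenase of the first step, had 1071 and 971 in the labelled triple mutant, against 2681 and 2185 in cmt3. OPR3 (AT2G06050), the peroxisomal reductase of a later step, had 2329 and 2205 in the labelled triple mutant, against 4238 and 3661 in cmt3. VSP2 (AT5G24770), a storage protein used as a marker of the response, had 3703 and 3609 in the labelled triple mutant, against 8418 and 6302 in cmt3. Of 19 tested genes on a jasmonate list, 5 were called lower, including OPR3 and VSP2, and 1 higher. Without these members this leaves 3 lower of 17, beside 2.32% lower and 6.15% higher over all tested genes. The other lower genes were VSP1 (-1.11 ± 0.17 SE, limma adjusted p = 0.0114) and the repressors TIFY10B (-0.50, limma adjusted p = 0.0173) and JAZ5 (-1.19, limma adjusted p = 0.00694). TAT3, a tyrosine aminotransferase, was higher at 292 and 318 in the labelled triple mutant, against 123 and 77.8 in cmt3 (1.63 ± 0.26, limma adjusted p = 0.0139). PDF1.2 had 205 and 312 in the labelled triple mutant, against 113 and 42.0 in cmt3 (1.86 ± 0.48, limma adjusted p = 0.072), and was not called. PDF1.2b (1.83) and PDF1.2c (1.56) also had higher estimates without a call. At an unadjusted p under 0.05 the list had 6 lower, OPR3 and VSP2 included, and 4 higher. Over all 23666 tested genes that threshold gave 2007 lower and 2833 higher. The most abundant genes of the list, LOX2 (-0.33) and AOC2 (-0.27), did not pass, and MYC2 was listed at 0 in all 4 libraries. TIFY10B lost its call without cmt3 replicate 1.

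Glucosinolates are sulfur compounds that myrosinases cut when tissue is damaged, and specifier proteins set the products. TGG2 (AT5G25980, chromosome 5, 9072708 to 9075777, plus strand), a myrosinase, was the most abundant of the 85, with 19235 and 19958 in the labelled triple mutant, against 44364 and 33192 in cmt3. ESP (AT1G54040), which directs products to epithionitriles, had 1535 and 1579 in the labelled triple mutant, against 3612 and 2505 in cmt3. NSP1 (AT3G16400), which directs them to nitriles, had 7593 and 6405 in the labelled triple mutant, against 11046 and 11578 in cmt3. The 2 cmt3 replicates of TGG2 and ESP lay far apart, and those of NSP1 did not. On a list of 14 such genes 4 were called lower and 0 higher by limma. At an unadjusted p under 0.05 limma had 8 lower, the 3 members included, and 0 higher. Over all 23666 tested genes that unadjusted threshold gave 2007 lower and 2833 higher. Without the members 1 of 11 was called lower, beside 2.32% called lower over all tested genes. The 1 is ESM1, which meets both values of the rule and was set aside in choosing the genes. ESM1 had 4248 and 4272 in the labelled triple mutant, against 53872 and 42541 in cmt3. The other myrosinase, TGG1, had 59384 and 52628 in the labelled triple mutant, against 111520 and 74247 in cmt3, and did not pass (limma adjusted p = 0.21). TGG1 and TGG2 mark myrosin cells, and their summed value was 72586 to 78619 in the labelled triple mutant and 107439 to 155884 in cmt3. TGG2 is lower by the rule, so the sum is lower in part by the rule and nothing about these cells is read from it. PYK10, a root enzyme of the same kind and with TGG1 the most abundant gene of the list outside the 85, did not pass, nor did PEN2 (-0.44, limma adjusted p = 0.0624) or NSP5 (-0.04).

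Receptors, kinases and defence proteins were the largest group, with 19 genes at 26.2% to 66.3% of cmt3. AT1G13609, annotated as a defensin-like protein, had 935 and 1084 in the labelled triple mutant, against 4300 and 3419 in cmt3, and after BHLH100 had the widest gap of the 85. ZAR1 (AT3G50950), an intracellular immune receptor that assembles into a membrane channel, had 5418 and 5890 in the labelled triple mutant, against 10914 and 8914 in cmt3. AT1G63750, annotated in the TIR-NBS-LRR class of resistance proteins, had 1289 and 1274 in the labelled triple mutant, against 2630 and 2250 in cmt3. CRK10 (AT4G23180, chromosome 4, 12137995 to 12140930, plus strand), a cysteine-rich receptor kinase, had 4777 and 5109 in the labelled triple mutant, against 11989 and 9215 in cmt3. CRK11 (AT4G23190, chromosome 4, 12140899 to 12143858, minus strand), of the same family, had 1156 and 1271 in the labelled triple mutant, against 2538 and 2073 in cmt3.

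CRK10 and CRK11 are the 1 pair of adjacent genes among the 85. They lie on opposite strands and overlap by 32 bases, and since the strand setting of the counts is not given, reads in the overlap cannot be assigned. The whole family did not follow them. Of 34 tested genes annotated as cysteine-rich receptor kinases, 2 were called lower and 5 higher, beside 2.32% and 6.15% over all tested genes. Both lower genes are members by the rule, and the higher ones were CRK4, CRK6, CRK7, CRK21 and CRK30. CRK6 had 268 and 275 in the labelled triple mutant, against 91.3 and 51.4 in cmt3 (log2 fold change 1.97 ± 0.31 SE, limma adjusted p = 0.0125). CRK30 had 330 and 270 in the labelled triple mutant, against 105 and 124 in cmt3 (1.38 ± 0.21, limma adjusted p = 0.011). CRK4 (limma adjusted p = 0.0208) and CRK7 (limma adjusted p = 0.0426) lost their calls without either cmt3 library, CRK7 also with a pseudocount of 0.1 and in the replicate block, CRK30 without replicate 1 and CRK21 (limma adjusted p = 0.0347) without replicate 2.

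WRKY factors bind the W-box of defence genes. WRKY15 (AT2G23320) had 2770 and 2811 in the labelled triple mutant, against 5010 and 4574 in cmt3. WRKY53 (AT4G23810), known for its role in leaf senescence, had 1028 and 1056 in the labelled triple mutant, against 1738 and 1528 in cmt3. It overlaps 3xHMG-box2 on the opposite strand, which ran the other way, at 3437 and 3153 in the labelled triple mutant, against 1696 and 1511 in cmt3. Of 66 tested genes annotated as WRKY, 3 were called lower and 5 higher. Without the 2 members, which are lower by the rule, 1 of 64 was called lower, and both shares lie near the 2.32% lower and 6.15% higher over all tested genes. WRKY33 was the third lower one (log2 fold change -0.36 ± 0.08 SE, limma adjusted p = 0.0499), and its call was lost without cmt3 replicate 1, with no filter on low values, with a pseudocount of 0.1 and in the replicate block. WRKY70, a factor of salicylic acid signalling, had 7986 and 8275 in the labelled triple mutant, against 4596 and 3936 in cmt3 (0.93 ± 0.10, limma adjusted p = 0.00301). WRKY54, WRKY18 (0.94), AT4G31805 (1.48) and WRKY51 (2.04) were also higher, and WRKY51 lost its call without either cmt3 library. AT4G31805 is counted by its annotation alone, since its symbol names no WRKY factor.

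The salicylic acid and immunity list of 22 genes holds no member of the 85. On it limma called 0 lower and 5 higher (0 and 12 at an unadjusted p under 0.05). Over all tested genes the adjusted calls were 2.32% lower and 6.15% higher. The unadjusted threshold gave 2007 lower and 2833 higher of the 23666 tested genes. EDS16, which makes the precursor of salicylic acid, and LURP1, a resistance gene, were among the 5 higher, with BGL2, SAG13 and WRKY70. LURP1 had 5776 and 6019 in the labelled triple mutant, against 2700 and 1739 in cmt3 (log2 fold change 1.44 ± 0.19 SE, limma adjusted p = 0.00688). The called genes of the salicylic acid list were thus higher, while the receptors and kinases among the 85 are lower by the rule. That contrast is set in part by the choice of genes, and no direction of immune genes is read from it. BGL2 and SAG13 lost their calls without either cmt3 library, and EDS16 without replicate 2.

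The remaining 12 genes of the group ranged in level between 52.5% and 66.3% of cmt3. PTI1-4 (AT2G47060), a kinase of stress signalling, had 2845 and 2859 in the labelled triple mutant, against 5149 and 4999 in cmt3. XLG2 (AT4G34390), an extra-large G protein, had 2063 and 1942 in the labelled triple mutant, against 3213 and 3025 in cmt3. CAD1 (AT1G29690), a perforin-domain protein that holds back cell death, had 1952 and 1903 in the labelled triple mutant, against 3433 and 2996 in cmt3. AtIPCS2, which makes inositol phosphorylceramides, stood at 64.9%. By their annotations the others were the kinases AT4G02410 (57.7%), AT3G09830 (66.3%) and AT1G21590 (63.3%), the calmodulin-binding protein AT5G62570 (53.7%), the ankyrin protein AT2G24600 (52.5%), the leucine-rich repeat protein AT5G12940 (56.2%), the chitinase AT2G43590 (54.1%) and the protease inhibitor AT2G38870. AT2G43590 had its higher cmt3 value in replicate 2, at 5437 against 3999 in replicate 1.

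Other transcription regulators were 4. ERF8 (AT1G53170), a repressor of the ethylene response factor family, had 626 and 865 in the labelled triple mutant, against 1825 and 1642 in cmt3. BZIP60 (AT1G42990), which acts in the unfolded protein response, had 2118 and 1971 in the labelled triple mutant, against 3313 and 3194 in cmt3. The GRAS protein SCL13 and AT5G05140, annotated in the TFIIS family, stood at 64.5% and 68.5% of cmt3. ERF8 had the widest replicate spread of the group in the labelled triple mutant.

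Of the 7 cell wall genes, expansins, which loosen walls, were 2. EXP3 (AT2G37640) had 1293 and 1238 in the labelled triple mutant, against 3415 and 2823 in cmt3. EXPA10 (AT1G26770) had 2707 and 2787 in the labelled triple mutant, against 5300 and 3928 in cmt3. Of 20 tested alpha expansins 4 were called lower, beside 2.32% lower and 6.15% higher over all tested genes. Without the members these are 2 of 18, EXPA8 (-0.72 ± 0.10 SE, limma adjusted p = 0.00734) and EXPA5 (-0.57 ± 0.11, limma adjusted p = 0.0217). Limma called 0 of the 20 higher. At an unadjusted p under 0.05 it had 9 of the 20 lower, EXP3 and EXPA10 included, and 1 higher. Over all 23666 tested genes that unadjusted threshold gave 2007 lower and 2833 higher. The root hair expansins EXPA7 and EXPA18 did not pass. EXPA8 lost its call without cmt3 replicate 1.

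GH9C2 (AT1G64390), an endoglucanase, had 4961 and 4775 in the labelled triple mutant, against 7432 and 7487 in cmt3. AT5G19240, annotated as a GPI-anchored glycoprotein, had 5357 and 5455 in the labelled triple mutant, against 9732 and 8255 in cmt3. AT2G05510, a glycine-rich protein, had 1021 and 1125 in the labelled triple mutant, against 2187 and 3771 in cmt3. The cmt3 replicates of AT2G05510 were the farthest apart of the 85 genes, and here replicate 2 was the higher. The pectin methylesterase ATPMEPCRB stood at 53.9% and AT5G15870, of glycosyl hydrolase family 81, at 63.5%.

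Among 13 genes of transport, metabolism and the chloroplast, AT1G61890, annotated as a MATE efflux protein, had 3144 and 3088 in the labelled triple mutant, against 6613 and 5808 in cmt3. CIPK9 (AT1G01140), a calcium-signalling kinase of potassium nutrition, had 3178 and 3339 in the labelled triple mutant, against 6882 and 5633 in cmt3. LHCB4.3 (AT2G40100), an antenna protein of photosystem II, had 1706 and 1597 in the labelled triple mutant, against 3476 and 2615 in cmt3. It was the 1 lower gene on a list of 42 tested light-harvesting and photosystem genes, of which LHB1B1 was called higher, with 27244 and 27188 in the labelled triple mutant, against 15589 and 12413 in cmt3 (log2 fold change 0.97 ± 0.14 SE, limma adjusted p = 0.01). Both calls stand beside 2.32% lower and 6.15% higher over all tested genes, and LHCB4.3 is lower by the rule. The most abundant others in cmt3, CAB1 (0.18) and PSBR (-0.12), did not pass. LHB1B2 was listed at 0 in all 4 libraries.

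RSH2 (AT3G14050), a plastid enzyme of the alarmone ppGpp, had 1763 and 1617 in the labelled triple mutant, against 3361 and 2618 in cmt3. NADK1 (AT3G21070), an NAD kinase, had 1681 and 1842 in the labelled triple mutant, against 2889 and 2913 in cmt3. The other 8 genes stood between 52.0% and 68.9% of cmt3. They were AT2G42750, a DnaJ protein (52.0%), the dihydroxyacetone kinase AT3G17770, the Patched family protein AT1G42470, the sucrose phosphatase family protein AT2G35840, SCPL11, AT4G21570, AT1G19380 and AT5G11650, at 68.9% the closest to cmt3 of the group.

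Among 10 other or uncharacterized proteins the lowest were AT2G14247, AT1G78070 and AT5G26270. AT2G14247 had 796 and 889 in the labelled triple mutant, against 2105 and 1985 in cmt3. AT1G78070, a WD40 repeat protein, had 1591 and 1866 in the labelled triple mutant, against 4127 and 4145 in cmt3. AT5G26270 had 2387 and 2297 in the labelled triple mutant, against 5480 and 5128 in cmt3. Their cmt3 replicates were close, and in AT1G78070 nearly equal. AT5G21020 was the most abundant of the 10 in cmt3, with 4945 and 5619 in the labelled triple mutant, against 8348 and 8196 in cmt3. AT5G05250 (46.9%), AT1G65490 (49.7%), AT4G01870 (57.6%), AT3G47080 (64.2%), AT3G19240 (66.3%) and AT1G67860 (66.7%) make up the rest.

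Genes without a protein-coding annotation are a small class here. Among the 5684 abundant genes 11 are annotated as ncRNA or lncRNA, and 6 of these (54.5%) are among the 85, where both labelled triple mutant values lie below both cmt3 values by the rule. In the other 5, both values were also below, and limma called 3 of them lower, beside 32.8% and 3.76% over the abundant genes. In the 867 less abundant tested genes of the same kind, the shares were 24.1% and 2.88%. Abundance was set on the cmt3 values alone, which favours genes that are high in cmt3, and the class was noticed after the values were seen. The counts are a description of these libraries. mRNA libraries hold such transcripts only where they are captured with mRNA, and the part of that step was not tested.

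GUT15 (AT2G18440), a gene whose transcript is known to be unstable, had 5878 and 6457 in the labelled triple mutant, against 10771 and 9984 in cmt3, and overlaps another gene on the same strand. AT4G13495 (chromosome 4, 7842967 to 7846774, plus strand) had 2598 and 2906 in the labelled triple mutant, against 6078 and 5782 in cmt3. Its span holds the microRNA genes MIR850, MIR863 and MIR5026 on the same strand, and reads cannot be told apart between them. MIR850 itself was listed at 110 and 155 in the labelled triple mutant, against 317 and 254 in cmt3. AT2G01422 had 979 and 888 in the labelled triple mutant, against 1983 and 1941 in cmt3. AT2G14878 had 912 and 1039 in the labelled triple mutant, against 1900 and 2304 in cmt3. AT4G36648 and AT1G69252 stood at 63.5% and 68.1% of cmt3. The abundant genes of this kind outside the 85 were AT1G67105, AT3G06355, AT4G38932, AT5G24735 and AT5G48412, of which AT3G06355 (limma adjusted p = 0.0529) and AT5G24735 (limma adjusted p = 0.129) did not pass. AT3G06355 lies over a ribosomal RNA gene.

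**Figure D4:**
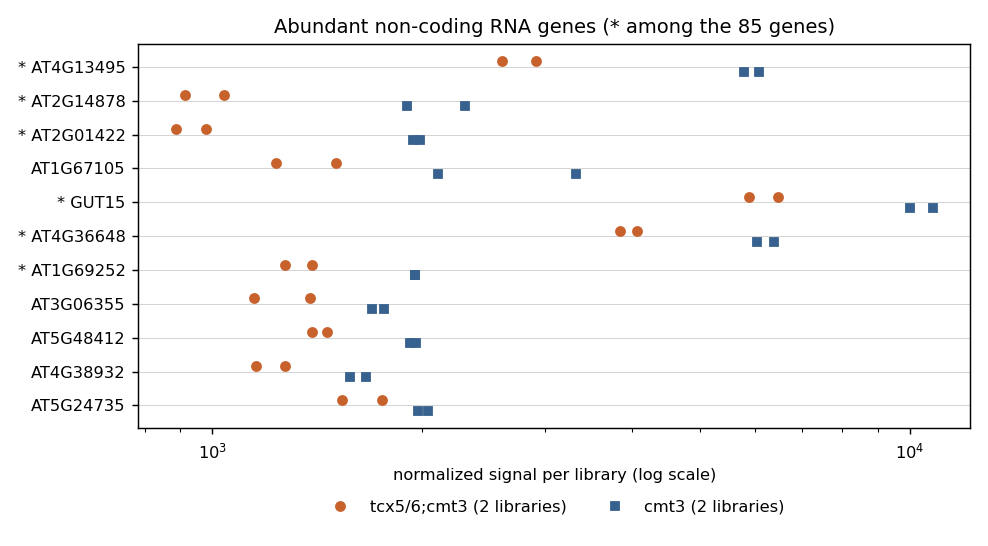
Normalized signal (log axis) of the 11 abundant genes annotated as non-coding RNA in each library, ordered by fold change, with circles for the labelled triple mutant (tcx5/6;cmt3), squares for cmt3 and an asterisk on the 6 that are among the 85. In every gene both circles lie left of both squares, with the widest gap in AT4G13495 and the narrowest in AT5G24735.

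The 85 genes also differed as a set from the abundant genes in features that the rule did not use, given as descriptions. They had fewer exons, with a median of 3 against 6 in the abundant genes, and 17.6% had a single exon, against 7.99% of the abundant genes. Median exon length was 1800 bases, against 1935. On chromosome 2 lay 25.9% of the 85, against 14.99% of the abundant genes, and on chromosome 3 lay 11.8%, against 20.3%. Another annotated gene overlaps 17 of the 85 (20%), against 29.9% of the abundant genes. Among them, ABI1 overlaps MEK1, NAC102 overlaps SHA1, ATAF1 overlaps AT1G01725, FRO3 overlaps LPR1 and ZAR1 overlaps PLP3a, each on the opposite strand, and shared reads cannot be told apart there.

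Promoter windows of 250 bases before to 50 after the annotated gene start were searched for short motifs on both strands. The G-box CACGTG was in 15.3% of the 85 genes, against 9.94% of the abundant genes and 7.11% of all genes in the table, and in 4 of the 6 iron genes: BHLH100, BTS, FRO3 and CGLD27. BTS holds 3 of them in the stretch printed above. The ACGTG core of abscisic acid response elements, which is part of the G-box and counts it too, was in 37.6%, against 29.0% of the abundant and 25.8% of all genes. In the abscisic acid group, 5 of the 14 genes held the ACGTG core. The G-box was in 2 of the 14, PP2CA and NAC032, so neither motif was more frequent there than among the 85. The CGCGT core of the CGCG-box was in 17 of the 85, against 11.4% of the abundant and 8.67% of all genes. TGGGCC, the site II motif of growth-related genes, was in 4.71%, against 21.6% of the abundant and 14.3% of all genes.

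Sites tied to the DREAM complex were searched in the same windows. The E2F sites TTTCCCGC, TTTCGCGC, TTTGCCGC and TTTGGCGC were in 1.18% of the 85 genes, which is ERD7 alone, against 1.51% of the abundant and 1.63% of all genes. The cell cycle motifs known from animal DREAM targets were in 47.1% (TTTGAA) and 7.06% (TTCGAA), against 43.0% and 9.20% of the abundant genes. The W-box core TTGAC was in 52.9%, against 50.1% of the abundant genes, the DRE core CCGAC in 11.8%, against 16.7%, and the evening element AAATATCT in 4.71%, against 7.30%. A match says only that these letters are in the window.

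Markers of other cell types were measured beside these results. The summed root markers were 54154 to 59699 in the labelled triple mutant and 63413 to 96922 in cmt3. Most of that sum is PYK10: the other 6 genes summed to 7006 and 6235 in the labelled triple mutant, against 5889 and 9523 in cmt3, and overlapped. Limma called 0 of 7 root markers and 0 of 3 vascular markers (0 root and 1 vascular gene at an unadjusted p under 0.05). Over all 23666 tested genes that unadjusted threshold gave 2007 lower and 2833 higher. The guard cell gene KAT1 was called higher (log2 fold change 0.43, limma adjusted p = 0.0466), 1 of 3 guard cell markers, of which FMA (-0.25) and MYB60 (0.35) did not pass. KAT1 lost its call with median centring, a pseudocount of 0.1, the replicate block and without cmt3 replicate 2. The trichome gene GL2 had 635 and 543 in the labelled triple mutant, against 1108 and 642 in cmt3. Their part in the lower level of the 85 genes was not tested.

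All calls of genes outside the 85 named here share a limit. Each was lost when either labelled triple mutant library was left out with the tested genes kept, and 48 of 57 called list genes lost theirs in limma without the mean-variance trend. With the filter applied again to the 3 libraries left, 25 lost theirs without labelled triple mutant replicate 1 and 24 without replicate 2.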

How the data were processed

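Total RNA came from 1 g of seedlings and mRNA libraries were sequenced, per the labels' protocols. Reads were aligned with HISAT2 to TAIR10 and edgeR was used (versions not stated), per the submitters' processing notes. For the counter, its strand setting and the scaling, the sources used here say nothing. The authors' table gives a normalized signal for each gene in each library (not whole reads), so the depth is unknown, no interval or detection limit is given and the count test named in the design was not used. Another 4 per-sample columns belong to no sample listed here and were not used.

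All 32548 identifiers matched the TAIR10.1 RefSeq annotation, which gave symbols, products and 1-based coordinates. Values under 1e-10 were set to 0. The 23666 genes that reached 1 in at least 2 libraries were tested. In R 4.3.3, limma 3.58.1 fitted genotype alone to log2(value + 1), with a mean-variance trend. Adjustment followed Benjamini-Hochberg over all tested genes, and an adjusted p-value under 0.05 was a call. Log2 fold changes are labelled triple mutant minus cmt3, on that same scale, which understates changes of low genes. With 2 libraries against 2, the smallest exact permutation p is 0.333. The fit was tested on simulated data.

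The members and lists were chosen with earlier results of these data known. The iron, abscisic acid and ATAF lists, the families and the role groups were chosen after the members' values were seen. Genes named by rule were the 15 with the largest ratio, the 15 with the highest cmt3 mean, those on a pathway list, adjacent or nearest a threshold, and, of pathway lists that hold a member, the called genes and the 2 most abundant others. Further genes were named after their values were seen. Alternatives were quantile normalization, median centring, other filters, a pseudocount of 0.1, a fit without the trend, blocking on replicate number, omission of each library and other rule thresholds. Applying the filter again to the 3 libraries left was chosen after seeing the data.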

Additional observations from a re-analysis of the deposited data

How the results depend on the processing

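No result changed direction. With all 4 libraries, limma called 549 genes lower and 1456 higher, and on the 16 fixed pathway lists 20 lower and 18 higher. Without the mean-variance trend it called 135 lower and 586 higher, and 3 and 1 on the lists. Leaving out 1 library and keeping the tested genes gave 0 to 530 lower and 0 to 1281 higher, and 0 to 28 lower and 0 to 23 higher on the lists. Each count of 0 came from leaving out a labelled triple mutant library: at an unadjusted p under 0.05 limma then had 821 lower and 1586 higher genes without replicate 1, and 879 lower and 1611 higher without replicate 2, against 2007 and 2833 with all libraries. The 341 lower calls came without cmt3 replicate 1. Applying the filter again to the 3 libraries left, chosen after seeing the data, changed the counts. Without labelled triple mutant replicate 1 it gave 212 lower and 757 higher (14 and 11 on the lists), and 217 lower and 720 higher (12 and 10) without replicate 2. It gave 2184 lower and 2999 higher (46 and 61) without cmt3 replicate 1, and 2568 lower and 3068 higher (68 and 46) without cmt3 replicate 2. The cause was not tested.

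Median centring gave 743 lower and 1349 higher calls, and quantile normalization 724 lower. The replicate numbers did not pair the libraries: the correlation of same-numbered deviations was 0.000633 over tested genes and 0.0692 over the abundant genes. A replicate block gave 473 lower and 1314 higher calls, and 21 and 18 on the lists.

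The rule that chose the 85 genes gave 152 at a ratio of 1.3 and 55 at 1.5, 118 at a minimum of 1000 and 66 at 2000, 91 after quantile normalization (80 shared) and 119 after median centring. Without 1 library it gave 108 to 226, with 175 without cmt3 replicate 1 and 226 without cmt3 replicate 2. Leaving out a library can only loosen this rule, so all 85 stay in by construction and these counts do not test the choice. The depth of each library is unknown, so which differences sampling error limits cannot be told.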
